A study of Mus musculus with 28 samples.

Results

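The 10 genes described here, Vcam1, Icam1, Sele, Selp, Ackr1, Cd34, Plvap, Vwf, Edn1 and Thbd, are markers of activated, leukocyte-binding or capillarized vessel lining. Membership was set by gene symbol alone, and the list was drawn up with earlier results of these data known. All 10 were found among the 32544 genes of each of the count tables, 1 table per sex, and their values were read in all 28 liver libraries.

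Liver sinusoids are lined by fenestrated endothelial cells with little basement membrane. Activated endothelial cells place selectins on their surface, which slow leukocytes, and immunoglobulin-type adhesion molecules, which arrest them through leukocyte integrins. In a diseased liver the sinusoidal lining can lose its fenestrae and gain features of a continuous capillary, a process called capillarization. Endothelin and thrombomodulin belong to the neighbouring functions of vessel tone and control of clotting.

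The livers came from C57BL/6 mice, 13 weeks old by the labels, and each gave 1 library of total RNA. Control mice with floxed alleles (CT) and mice with c-Myc deleted from endothelial cells (KO) all received tamoxifen, which induces the recombinase, at 5 weeks of age. After a further 2 weeks the diet began, either the low-fat control (CTD) or the high-fat/cholesterol diet (HFC), and it lasted 5 weeks. The 8 groups were CT on CTD, KO on CTD, CT on HFC and KO on HFC, each with 4 males and, separately, 3 females. The promoter that drives the recombinase is not given in the labels used here. Animals on CTD were numbered 298 to 320 and animals on HFC 412 to 543, so diet and range of animal numbers cannot be told apart. Males and females were deposited in separate tables, so sex and table cannot be told apart either.

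Library totals were 22154774 to 22652285 counts in males and 18741939 to 19195502 in females. Levels below are CPM, the counts of a gene scaled to its library total and then by trimmed mean of M values (TMM) factors. A gene was called when its adjusted p, from edgeR's quasi-likelihood test with Benjamini-Hochberg adjustment over all tested genes, was under 0.05. In whole liver, Myc RNA ranged over 3.09 to 20.1 CPM in KO males and 3.58 to 12.4 CPM in CT males, and over 4.65 to 20.5 and 4.38 to 11.97 CPM in KO and CT females. Its log2 difference of KO from CT was 0.45 to 0.81 in the 4 comparisons of genotype, none called (adjusted p = 0.842 to 1.0). Hepatocyte markers, 8 genes, summed to 79570 to 111700 CPM on CTD and 71870 to 89540 on HFC in CT males, and 98620 to 119100 and 71750 to 84590 in KO males. In CT females the sums were 166200 to 171500 and 94400 to 144100 CPM, and in KO females 154900 to 180200 and 98180 to 114100. On HFC 3 of 8 were called lower in CT males, 4 in KO males, 1 in CT females and 5 in KO females, and their part in the diet results was not tested. None of 12 pan-endothelial markers was at 0 in any group. Whole-liver RNA mixes all cells, so the Myc value does not check a deletion confined to endothelial cells. For the same reason fewer cells of a type and less RNA per cell cannot be told apart in any result below.

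Per kilobase of exon, Plvap was the most abundant of the 10 genes in CT livers on CTD and Sele the least abundant in both sexes. In males the mean level per kilobase was 17.6 CPM for Plvap, 4.11 for Vcam1, 2.46 for Icam1, 1.71 for Selp and 1.41 for Thbd. Cd34 at 0.50 and Vwf at 0.46 CPM per kilobase lay within each other's spread, as did Ackr1 at 0.28 and Edn1 at 0.26. Sele stood at 0.025 CPM per kilobase, from 6 counts in 4 livers. In females Icam1, at 3.79 CPM per kilobase, ranked above Vcam1 at 2.82, with overlapping ranges. The filter on low counts passed 9 genes in males, without Sele, and 9 in females, without Edn1. No female CTD liver had more than 1 Sele count, so Sele passed the female filter through HFC livers alone.

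**Figure D1:**
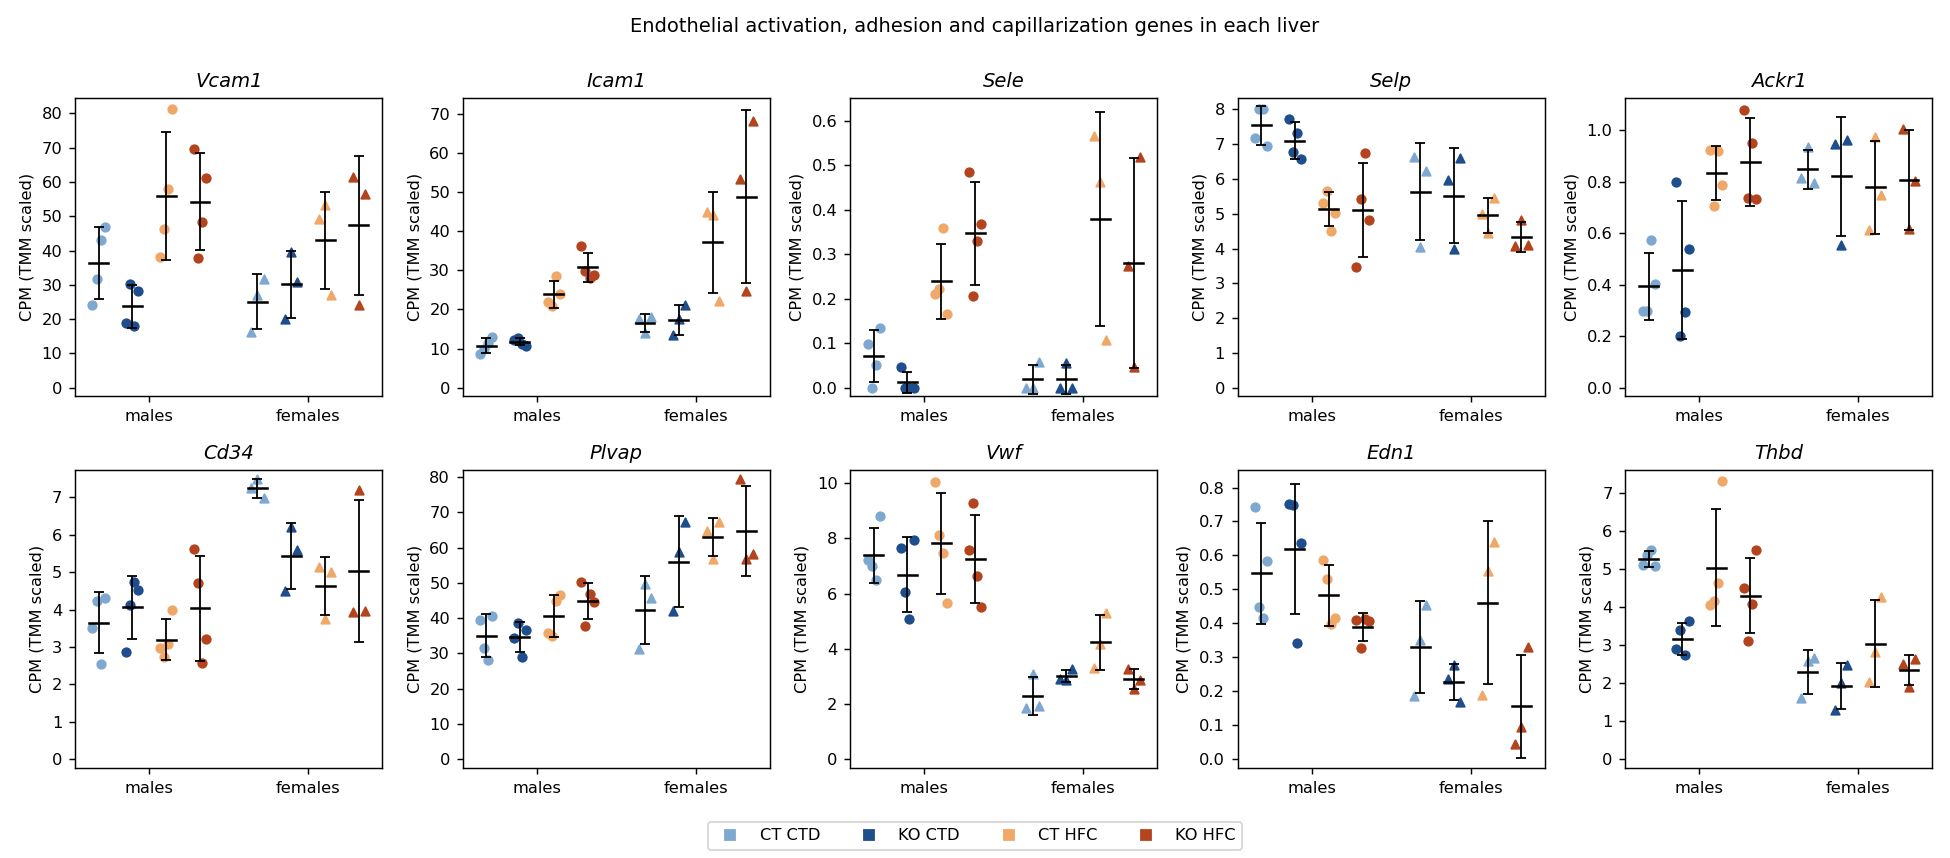
TMM-scaled CPM of the 10 genes in each of the 28 livers, males as circles and females as triangles, coloured by genotype and diet. Horizontal bars are group means and error bars the SD. The 8 male HFC livers sit between 20.8 and 36.2 CPM for Icam1, above all 8 male CTD livers, while Cd34 and Vwf overlap across the male groups.

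The first question was what the diet did to these genes in each genotype. On HFC, male livers of both genotypes had more Icam1 and less Selp, CT males had more Ackr1, and KO males had more Vcam1 and Plvap. KO females had more Icam1. Cd34, Vwf, Edn1 and Thbd were not called in any diet comparison, and Sele, though rare, had more counts on HFC in all 4. The 2 diet comparisons of a sex share no animals with each other, but each shares a group with a comparison of genotypes.

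In CT males 2 of the 9 tested genes rose and 1 fell, where 20.0% of all tested genes were called, 10.6% higher and 9.4% lower. In KO males 3 rose and 1 fell, where 29.1% of all tested genes were called, 15.5% higher and 13.6% lower. In CT females 0 of 9 were called, where 2.19% of all tested genes were. At unadjusted p under 0.05 there were 5 of 9, Sele among them, against 20.3% of all genes. DESeq2 called 2, beside 414 genes higher and 505 lower among all 13999. In KO females 1 of 9 rose, where 8.59% of all tested genes were called and 3.94% rose. The 9 tested genes include Edn1 but not Sele in males, and Sele but not Edn1 in females. Their median log2 fold change was 0.08 in CT males, 0.37 in KO males, 0.58 in CT females and 0.21 in KO females. Over all tested genes it was -0.01, -0.02, 0.00 and 0.02.

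The livers of the diets did not overlap for 2 tested genes higher on HFC and 1 lower in CT males, which was true of 11.4% and 10.2% of all tested genes. In KO males this held for 2 higher genes, against 15.4% of all genes. In CT females it held for 4 higher and 1 lower, against 14.3% and 14.1%, and in KO females for 1 higher, against 12.2%. Sele, which passed the female filter through HFC livers alone, is among the 4. No member's diet effect was called different between the sexes, where 0.00681% of all genes were in CT and 0.157% in KO. The genotype effect was called different between the sexes for 0 members and 0.0% of all genes on either diet, with 5.54% of all genes on CTD and 1.35% on HFC at unadjusted p under 0.05.

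**Figure D2:**
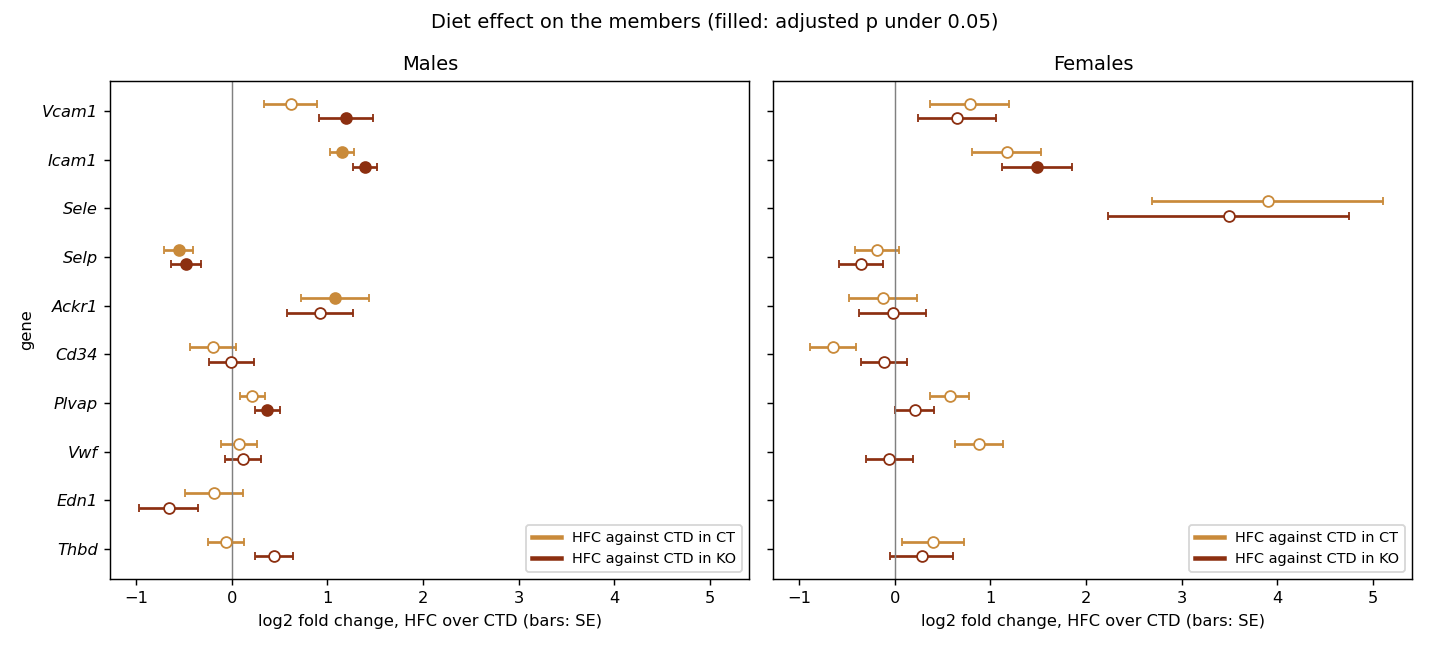
Log2 fold change of HFC over CTD for each gene in males and females, in CT and KO livers, with bars of SE and filled symbols at adjusted p under 0.05. Icam1 was called in 3 of the 4 comparisons. With TMM scaling Selp was below 0 in all 4 and called in males. No symbol is drawn where the filter removed a gene (Sele in males, Edn1 in females).

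Icam1 and Sele encode adhesion molecules that are induced by inflammatory cytokines through the transcription factor NF-kB, Sele in endothelial cells and Icam1 in many cell types. Their promoters are shown because Icam1 was called in 3 of the 4 diet comparisons and Sele had the largest ratio of the 10 genes in each. The 250 bases before the RefSeq start sites, on the plus strand of GRCm38.p6, lie at chr9:21015690-21015939 for Icam1 and chr1:164047984-164048233 for Sele. Capitals mark a match to GGANNTTCC, a form of NF-kB site, searched on both strands.

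Icam1: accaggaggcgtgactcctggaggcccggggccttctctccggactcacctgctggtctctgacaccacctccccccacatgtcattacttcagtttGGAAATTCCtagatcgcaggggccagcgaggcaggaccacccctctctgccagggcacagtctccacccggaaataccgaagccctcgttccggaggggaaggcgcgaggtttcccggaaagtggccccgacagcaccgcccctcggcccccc
Sele: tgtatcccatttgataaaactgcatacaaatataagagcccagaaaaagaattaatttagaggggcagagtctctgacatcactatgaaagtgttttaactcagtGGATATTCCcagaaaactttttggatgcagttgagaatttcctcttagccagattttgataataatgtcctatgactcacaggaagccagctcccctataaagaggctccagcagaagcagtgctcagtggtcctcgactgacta

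The match was GGAAATTCC in Icam1, 153 bases before the start site, and GGATATTCC in Sele, 145 bases before it. The Icam1 stretch fits this pattern on either strand, though its letters differ between strands, and the Sele stretch fits it on the plus strand only. This motif was chosen after the promoters had been seen, and 3.59% of all 32851 RefSeq promoter windows of this length hold it. RefSeq windows were at hand for 6 of the 10 genes, and among these Selp, Ackr1, Cd34 and Edn1 had no match to this pattern. Other forms of NF-kB site can miss it, so this does not set the 4 genes apart from Icam1 and Sele. A separate NF-kB consensus was present in 7.25% of all windows, and its matches in these promoters are not reported here. The match is a description of letters and not a binding measurement.

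Icam1, on chromosome 9 at 21015985 to 21028817 (plus strand, GRCm38), encodes the ligand of the leukocyte integrins LFA-1 and Mac-1. HFC livers of males had over 2 times the Icam1 RNA of CTD livers in either genotype. In CT males the level was 8.61, 9.86, 11.5 and 12.9 CPM on CTD, against 21.9, 20.8, 28.6 and 23.9 CPM on HFC. In KO males it was 12.2, 12.7, 11.1 and 10.8 CPM on CTD, against 36.2, 29.9, 27.98 and 28.9 CPM on HFC. No HFC liver overlapped a CTD liver in either genotype. The ratio of HFC to CTD was 2.22 (approximate 95% interval 1.87 to 2.64, adjusted p = 3.93e-05) in CT males by edgeR's quasi-likelihood test. In KO males it was 2.63 (2.22 to 3.12, adjusted p = 9.82e-07). Both calls held in each of 23 alternative settings, which included leaving out each male in turn.

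Female livers also separated by diet for Icam1, with more spread. CT females had 17.6, 13.96 and 18.03 CPM on CTD, against 45.0, 44.2 and 22.2 CPM on HFC. KO females had 13.5, 17.4 and 21.0 CPM on CTD, against 53.4, 24.7 and 68.2 CPM on HFC. The low values on HFC were animals 512 and 413, yet both lay above all females of their genotype on CTD. The ratio was 2.81 (1.71 to 4.62) in KO females with adjusted p = 0.0312, and 2.25 (1.37 to 3.69) in CT females with adjusted p = 0.122, by edgeR's quasi-likelihood test. Leaving out any of KO animals 307, 309, 317, 412 or 419 took the KO call away, at adjusted p = 0.114, 0.0951, 0.0601, 0.117 and 0.0920 respectively, with log2 fold changes of 1.17 to 1.66. It was also lost with no filter (0.0687) and in a fit of only the compared groups (0.0746). In CT females Icam1 was called by DESeq2 (adjusted p = 0.0175), limma (0.0362), under library totals (0.0382), and without KO HFC animal 413, which enters the shared spread (0.0325). The limma fit used deposited CPM, so here and below it and library totals both omit TMM scaling and are not separate checks. They raised the median log2 diet effect of all genes in CT females by 0.25 and 0.29. The diet effect on Icam1 was not called different between the sexes (female minus male log2 -0.01 in CT and 0.07 in KO, adjusted p = 1.0 and 0.969, edgeR).

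Vcam1, on chromosome 3 at 116109949 to 116129688 (minus strand), encodes the endothelial partner of the integrin VLA-4 on monocytes and lymphocytes, and Kupffer cells and activated stellate cells can express it too. In KO males the level was 18.8, 30.1, 18.04 and 28.1 CPM on CTD, against 69.7, 37.7, 48.3 and 61.3 CPM on HFC. In CT males it was 24.1, 31.7, 43.0 and 46.9 CPM on CTD, against 38.2, 46.1, 57.9 and 81.2 CPM on HFC. The diets were apart in KO males and overlapped in CT males. The HFC to CTD ratio was 2.28 (1.55 to 3.36, adjusted p = 0.00652) in KO males and 1.53 (1.05 to 2.24, adjusted p = 0.141) in CT males by edgeR's quasi-likelihood test. The KO call held in all 23 alternatives, and the CT rise was called under library totals (log2 0.84, adjusted p = 0.0435) and by limma (0.81, adjusted p = 0.0304). With HFC animals 412 to 420 only, the CT rise was log2 0.39 (adjusted p = 0.411, edgeR), and with 1 animal left out it went as low as 0.38. A call in KO males alone does not show a difference between genotypes, because the interaction itself was not called (log2 0.58, SE 0.40, adjusted p = 0.922).

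Vcam1 in females ran from 16.2 to 31.8 CPM in CT and 19.9 to 39.6 CPM in KO on CTD. On HFC it was 49.1, 53.1 and 26.9 CPM in CT and 61.6, 24.2 and 56.4 CPM in KO. Animals 512 and 413 were again the low ones, here within the CTD range. The ratio was 1.72 (0.986 to 3.003) in CT and 1.57 (0.905 to 2.73) in KO females, with adjusted p = 0.313 and 0.346 by edgeR.

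Sele, on chromosome 1 at 164048234 to 164057677, encodes E-selectin, an endothelial selectin made on activation. It was near the limit of detection in these libraries. On CTD the counts were 2, 0, 1 and 3 in CT males, 1, 0, 0 and 0 in KO males, 0, 0 and 1 in CT females, and 0, 1 and 0 in KO females. On HFC they were 5, 5, 9 and 4 in CT males, 13, 5, 8 and 9 in KO males, 12, 10 and 2 in CT females, and 6, 1 and 11 in KO females. Every male HFC library exceeded every male CTD library in CPM. CT females were apart as well, and KO females overlapped through animal 413 with its 1 count.

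The pooled ratio of Sele between diets, with an exact interval that covers counting error only, was 3.28 (1.30 to 9.84) in CT males from 23 against 6 counts. In KO males it was 28.8 (4.84 to 1170) from 35 against 1, in CT females 19.8 (3.23 to 814) from 24 against 1, and in KO females 14.8 (2.33 to 615) from 18 against 1. Reads carry no molecular identifiers, so these intervals are a lower limit of the error. The filter left Sele out of the male test. With no filter its adjusted p was 0.129 in CT males and 0.000795 in KO males by edgeR's quasi-likelihood test. In females Sele passed the filter through HFC livers alone, so its female tests are not independent of the diet difference and only describe it. It was not called there, at adjusted p = 0.109 in CT and 0.103 in KO by edgeR, and was called under library totals (0.0414 and 0.0436). Without animal 413 the KO value was called, with a log2 fold change of 3.97 and adjusted p = 0.0287.

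Selp, on chromosome 1 at 164115264 to 164150026, encodes P-selectin, which endothelial cells and platelets keep in granules ready for release. Its RNA moved opposite to Icam1 in males. CT males had 7.18, 8.01, 8.01 and 6.96 CPM on CTD, against 5.32, 5.65, 4.51 and 5.02 CPM on HFC. KO males had 7.74, 6.77, 7.31 and 6.58 CPM on CTD, against 3.46, 5.41, 6.74 and 4.81 CPM on HFC. The diets were apart in CT males and overlapped in KO males through animal 539. Selp fell on HFC, with a ratio of 0.680 (0.552 to 0.837, adjusted p = 0.0168) in CT males and 0.718 (0.583 to 0.884, adjusted p = 0.0258) in KO males by edgeR. Scaling by library totals alone raises the median log2 diet effect of all male genes by 0.23 in CT and 0.28 in KO. The limma fit, also without TMM scaling, raises it by 0.20 and 0.23. Under library totals the Selp falls shrank to log2 -0.33 and -0.22 and were not called (adjusted p = 0.0811 and 0.219), as with limma (0.0759 and 0.175). The KO fall was not called in a fit of only its groups (0.0835). The CT call was also lost without animal 418 (adjusted p = 0.0610), and the KO call without animal 298, 304, 414 or 540 (adjusted p = 0.0695, 0.0562, 0.0786 and 0.0611, log2 -0.47 to -0.33).

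In females Selp was 6.62, 4.03 and 6.24 CPM in CT and 5.96, 3.995 and 6.62 CPM in KO on CTD. On HFC it was 4.99, 4.44 and 5.44 CPM in CT and 4.06, 4.83 and 4.10 CPM in KO. The groups overlapped, and the ratios of 0.881 and 0.785 were not called (adjusted p = 0.696 and 0.362, edgeR). Without TMM scaling the CT value lay above 0, at log2 0.11 under library totals and 0.11 under limma. The KO value was then -0.05 and -0.02.

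Ackr1, on chromosome 1 at 173331886 to 173333750 (minus strand), encodes an atypical chemokine receptor that binds chemokines without classical signalling and marks venular endothelium and red blood cells. It was a low-count gene, at 4 to 29 counts per library. CT males had 0.297, 0.299, 0.572 and 0.404 CPM on CTD, against 0.922, 0.706, 0.917 and 0.788 CPM on HFC. KO males had 0.797, 0.199, 0.292 and 0.540 CPM on CTD, against 1.08, 0.738, 0.951 and 0.733 CPM on HFC. CT males were apart by diet, and KO males overlapped through animal 298. The ratio was 2.11 (1.30 to 3.43, adjusted p = 0.0407) in CT males and 1.90 (1.19 to 3.03, adjusted p = 0.0531) in KO males by edgeR. The CT call was lost with no filter (adjusted p = 0.0630) and with HFC animals 412 to 420 only (0.0878). Leaving out any of 7 males (301, 305, 320, 416, 418, 539 and 543) removed it, at adjusted p = 0.0502 to 0.113, whereas the KO rise was called without animal 298 (0.0115), under library totals (0.0139), by DESeq2 (0.0493) and by limma (0.00684). Erythroid markers in the same livers summed to 344 to 692 CPM in CT males on CTD and 326 to 702 CPM on HFC. In KO males the sums were 385 to 488 and 299 to 578 CPM. In CT females they were 325 to 486 and 512 to 1082 CPM, and in KO females 258 to 425 and 344 to 1004. On HFC 1 of 5 tested erythroid markers was called higher in females of each genotype, and 0 of 5 in males. The part of these markers in the Ackr1 results was not tested.

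In females the Ackr1 groups overlapped. CT females had 0.812, 0.934 and 0.794 CPM on CTD, against 0.612, 0.972 and 0.747 CPM on HFC, and KO females 0.555 to 0.962 and 0.616 to 1.004 CPM. The female ratios were 0.919 (0.570 to 1.48) in CT and 0.987 (0.614 to 1.59) in KO. The test of the difference between the sexes gave log2 -1.24 (SE 0.49) in CT with unadjusted p = 0.0193 and adjusted p = 0.625 by edgeR, so a sex difference was not called.

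Plvap, on chromosome 8 at 71497765 to 71511752 (minus strand), encodes the protein of the diaphragms that span endothelial fenestrae and caveolae, and Cd34 encodes a sialomucin of continuous capillaries. Plvap was 34.4, 38.7, 29.1 and 36.5 CPM in KO males on CTD and 50.2, 37.8, 46.8 and 44.7 CPM on HFC. These ranges overlapped narrowly, and the ratio of 1.29 (1.08 to 1.55) was called at adjusted p = 0.0415 by edgeR. The call was lost with no filter (adjusted p = 0.0565), with HFC animals 412 to 420 only (0.134), and without any of animals 298, 304, 311, 414, 539 or 540, at adjusted p = 0.0590 to 0.127 with log2 fold changes of 0.30 to 0.40. In CT males Plvap was 28.2 to 40.7 CPM on CTD, against 35.0 to 46.5 CPM on HFC, a ratio of 1.16 (0.970 to 1.39) that was not called (adjusted p = 0.273) but was under library totals (0.0465) and by limma (0.0428).

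CT females had 31.4, 49.7 and 45.6 CPM of Plvap on CTD and 64.8, 56.9 and 67.2 CPM on HFC. These did not overlap, but the ratio of 1.49 (1.13 to 1.97) had adjusted p = 0.146 by edgeR. It was called under library totals (0.0318) and by limma (0.0298), both without TMM scaling. KO females overlapped, at 42.0, 58.9 and 67.3 CPM against 79.5, 56.8 and 58.1 CPM (ratio 1.16, adjusted p = 0.551, edgeR).

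Cd34, on chromosome 1 at 194938819 to 194961279, ran from 2.55 to 5.62 CPM in males, with overlapping ranges in all 4 groups. Its HFC to CTD ratio was 0.873 (0.630 to 1.21) in CT and 0.995 (0.723 to 1.37) in KO males. CT females on CTD stood higher, at 7.25, 7.48 and 6.98 CPM, than CT females on HFC at 5.13, 3.75 and 5.01 CPM. The groups did not overlap, yet the ratio of 0.640 (0.463 to 0.886) had adjusted p = 0.159 by edgeR. KO females overlapped, with a ratio of 0.925 (0.668 to 1.28, adjusted p = 0.803).

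Vwf, on chromosome 6 at 125546774 to 125686679, encodes von Willebrand factor, the platelet-binding protein of large-vessel endothelium. Male levels of 5.07 to 10.1 CPM overlapped across groups, with diet ratios of 1.06 (0.819 to 1.36) in CT and 1.08 (0.839 to 1.402) in KO. In CT females it was 1.87, 3.10 and 1.93 CPM on CTD, against 3.30, 4.17 and 5.28 CPM on HFC. These were apart, with a ratio of 1.84 (1.31 to 2.59) and adjusted p = 0.0839 by edgeR. Vwf was called there under library totals (0.0164), by DESeq2 (0.0362) and by limma (0.0135). Its log2 fold change went from 0.88 to 0.49 with HFC animals 412 to 420 only, which leaves CT female 420 alone on HFC. In KO females it was 2.89, 2.88 and 3.28 CPM on CTD, against 3.29, 2.56 and 2.87 CPM on HFC, with a ratio of 0.963 (0.687 to 1.35). The female interaction for Vwf had log2 -0.93 (SE 0.35) with unadjusted p = 0.0198 and adjusted p = 0.991, so the genotypes were not called different.

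Edn1, on chromosome 13 at 42301476 to 42307990, encodes endothelin-1, a vasoconstrictor peptide. Its counts were 7 to 16 in male livers and 1 to 12 in female livers. KO males had 0.750, 0.747, 0.341 and 0.638 CPM on CTD, against 0.409, 0.328, 0.413 and 0.407 CPM on HFC. The groups overlapped, and the ratio of 0.633 (0.418 to 0.956) was not called, at adjusted p = 0.115 by edgeR. It was called without animal 304 (log2 -0.86, adjusted p = 0.0418). The female filter removed Edn1. On HFC, KO females had 1, 2 and 7 counts and CT females 4, 12 and 12, and with no filter the KO against CT difference had log2 -1.52 and adjusted p = 1.0.

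The second question was whether loss of endothelial c-Myc changed these genes. No member was called between KO and CT on either diet in either sex, and in each of these 4 comparisons 0.0% of all tested genes were called. At unadjusted p under 0.05 stood 6.74% of all genes in males on CTD, 4.64% in males on HFC, 3.19% in females on CTD and 2.22% in females on HFC. Among the members that passed the filter, the smallest p was that of Thbd in males on CTD. Thbd, on chromosome 2 at 148404466 to 148408188 (minus strand), encodes thrombomodulin, the endothelial receptor that turns thrombin towards activating protein C. CT males had 5.10, 5.38, 5.51 and 5.07 CPM and KO males 2.91, 3.39, 2.73 and 3.63 CPM. No KO liver reached the lowest CT liver, as was true, in this direction, of 2.05% of all tested genes. The ratio was 0.601 (0.460 to 0.786), with unadjusted p = 0.00168 and adjusted p = 0.641 by edgeR. Over 23 alternatives the log2 difference stayed between -0.81 and -0.58, and adjusted p was 0.226 or higher.

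On HFC the Thbd values overlapped, at 4.07, 4.15, 4.63 and 7.30 CPM in CT and 4.50, 3.12, 4.09 and 5.50 CPM in KO males, with a ratio of 0.854 (0.660 to 1.11). Females had 1.62, 2.57 and 2.67 CPM in CT and 1.30, 2.00 and 2.49 CPM in KO on CTD, a ratio of 0.843 (0.534 to 1.33). On HFC they had 2.02, 2.82 and 4.27 CPM in CT and 2.51, 1.90 and 2.64 CPM in KO, a ratio of 0.776 (0.502 to 1.20). The ratio was below 1 in all 4 comparisons, without a call in any. On HFC that direction turned in females with animals 412 to 420 only (log2 0.21), and in males without animal 543 the difference was log2 0.0077. Thbd on HFC against CTD gave 0.957 in CT and 1.36 in KO males, neither called (adjusted p = 0.852 and 0.102). The KO value, log2 0.44, was called under library totals (0.72, adjusted p = 0.0106), under limma (0.55, adjusted p = 0.0137), and without animal 543 (0.44, adjusted p = 0.0461) or 415 (0.57, adjusted p = 0.0382). These comparisons share animals with the genotype comparisons.

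Other members that stood out between genotypes did so without a call. Icam1 in males on HFC was 1.29 times higher in KO (1.10 to 1.52, adjusted p = 0.958), with overlapping livers. Vcam1 in males on CTD had a ratio of 0.651 (0.442 to 0.959, adjusted p = 0.738), also overlapping. Cd34 in KO females on CTD, at 4.49, 6.21 and 5.60 CPM, lay below all CT females on CTD (ratio 0.752, 0.543 to 1.04), where 4.7% of all genes were apart in that direction. Vwf in KO females on HFC lay below all CT females on HFC (ratio 0.686, 0.493 to 0.955, adjusted p = 1.0), where 2.66% of all genes were apart in that direction. With HFC animals 412 to 420 only, which leaves CT female 420 alone on HFC, the Vwf log2 difference went from -0.54 to -0.18. The interaction of genotype and diet was called for 0 of 9 genes in either sex, where 0.0% of all genes were called, and 6.05% in males and 3.90% in females had unadjusted p under 0.05.

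**Figure D3:**
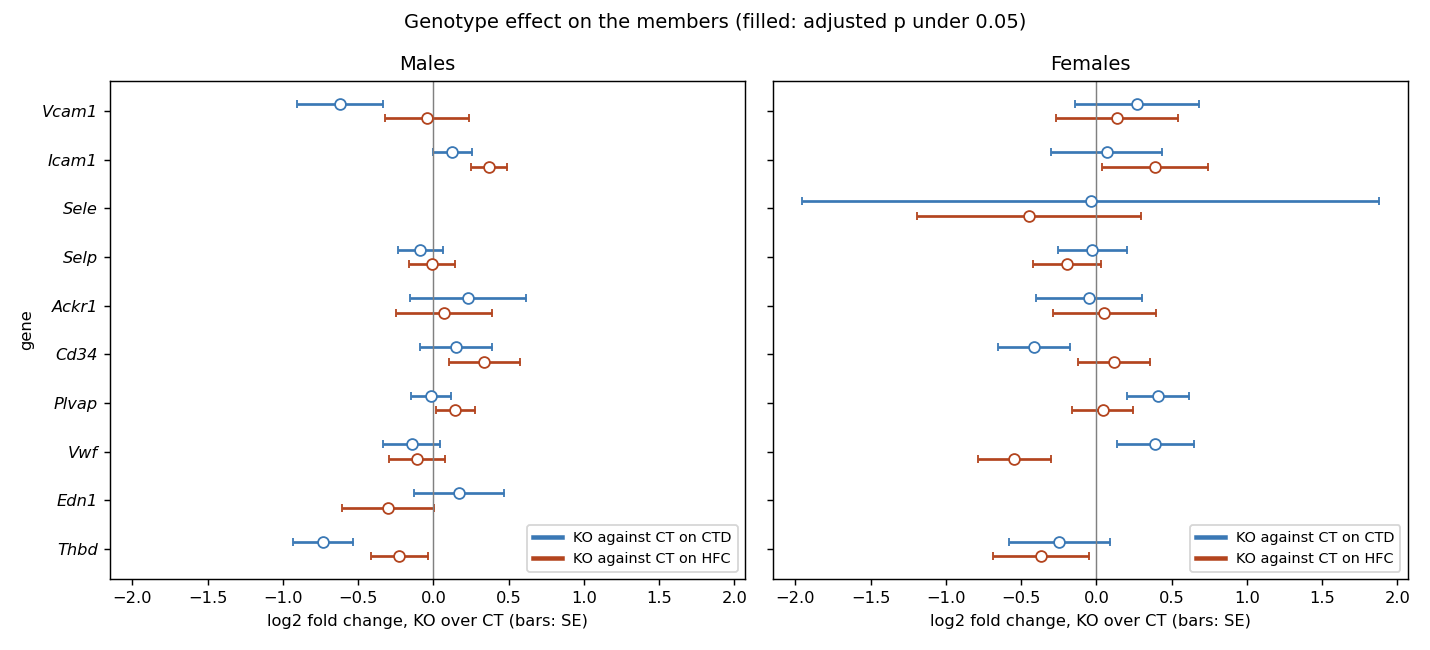
Log2 fold change of KO over CT for each gene on CTD and on HFC, in males and females, with bars of SE. All symbols are open because no adjusted p was under 0.05. Thbd lies below 0 in all 4 comparisons, farthest from 0 in males on CTD, at -0.73.

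Genes that work with these members were read from lists of related function. These lists were chosen with earlier results of these data known, so a count above the share of all genes is a description only. Every count below has to be held beside the shares over all tested genes. On HFC 10.6% of these rose in CT males, 15.5% in KO males and 3.94% in KO females. In KO males 13.6% fell, and in CT females 2.19% were called in either direction. Of 10 tested leukocyte counter-receptors, 7 rose on HFC in CT males and 9 in KO males, with median log2 fold changes of 0.99 and 1.70, where 10.6% and 15.5% of all tested genes rose. In females 0 of 11 were called in either genotype, with medians of 1.03 and 0.74. The male calls included Selplg, the ligand of P-selectin, at 1.02 in CT (adjusted p = 0.000361) and 1.69 in KO (adjusted p = 1.27e-06). Itgal, the alpha chain of the Icam1 receptor LFA-1, rose by log2 1.72 in KO males. Of 14 genes of NF-kB response and cytokine input, 9 rose in CT and 11 in KO males and none fell. Tnf rose by log2 2.72 and 3.59, and Tnfaip3, an NF-kB target that limits the response, by 1.30 and 1.63. In KO females 4 of the 14 rose, among them Nfkb2 (1.05), Relb (1.60) and Tnf (4.24), and in CT females 0 of 14 were called.

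Other endothelial adhesion molecules moved less. F11r (0.29) and Mcam (0.52) rose in CT males, and 4 of 10 rose in KO males, including Pecam1 (0.50), Alcam (0.46) and Mcam (0.66). Their medians were log2 0.03 and 0.25, and 0 of 10 were called in females of either genotype. In the continuous vessel list, Ly6a (1.16 in CT, 1.73 in KO) and Cd9 (0.81, 0.69) were the 2 of 13 tested genes that rose in males, where 10.6% (CT) and 15.5% (KO) of all tested genes rose. Leukocytes also express both. In females Cd9 alone was called, at 1.03 in CT (adjusted p = 0.0274) and 1.4 in KO (adjusted p = 0.002).

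No marker of sinusoidal identity was called lower on HFC. Of 17 tested, 0 were called in CT males (median log2 -0.06), and in KO males Mrc1 (0.69) and Lyve1 (0.70), endocytic receptors that macrophages can also carry, rose (median 0.19). These 2 of 17 stand beside 15.5% of all tested genes that rose in KO males. In females Fcgr2b rose by 0.51 in KO and 0 of 17 were called in CT. Of 10 basement membrane genes, Nid1 (1.75), Col4a2 (0.72) and Col4a1 (0.81) rose in KO males, where 15.5% of all tested genes rose, and 0 were called in CT males. In the same comparisons 4 of 11 stellate cell and fibroblast markers rose in KO males, among them Dpt (0.98), Col3a1 (1.74) and Des (0.45), and 1 in CT males. Their sum was 224 to 256 CPM on CTD, against 273 to 572 CPM on HFC, in KO males, and their part in the result was not tested. Nid1 rose in females of both genotypes (1.26 and 1.36), with Nid2 (0.78) in KO.

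Around Thbd, Procr, the endothelial protein C receptor, rose by log2 2.05 in CT males, 2.79 in KO males and 2.75 in KO females (adjusted p = 0.00036, 5.7e-06 and 0.0430, edgeR). In all, 2 of the 14 genes of this list rose in CT males, 5 in KO males, 0 in CT females and 2 in KO females, and none fell. In the endothelin and nitric oxide list only Ece1, which processes endothelin, was called among 6 tested genes, and it fell by log2 0.47 in KO males.

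In males the sum of 12 pan-endothelial markers overlapped between diets, although Cdh5 (0.41 in CT, 0.84 in KO) and, in KO, Fli1 (1.18) rose on the log2 scale. That is 1 of 12 in CT and 2 of 12 in KO, where 10.6% and 15.5% of all tested genes rose. The sum was 214 to 279 CPM in CT on CTD and 201 to 307 on HFC, and 164 to 236 and 189 to 244 CPM in KO. Relative to that total, a description added after the data were seen, mean Icam1 rose from 4.43% to 10.2% in CT males and from 5.99% to 14.1% in KO males, with diets apart. In KO females it went from 10.1% to 23.8%, also apart, and in CT females from 10.5% to 16.7%, overlapping. Vcam1 in KO males, apart by diet in CPM, overlapped on this scale, at 12.1% and 25.1%. Selp relative to the same total overlapped between diets in males of both genotypes. Female pan-endothelial totals were 131 to 184 CPM in CT and 142 to 189 CPM in KO on CTD, and 217 to 226 and 201 to 209 CPM on HFC, so they lay higher on HFC. On this relative scale Plvap of CT females was 25.8% on CTD and 28.3% on HFC, overlapping, whereas Cd34 was 4.56% and 2.08%, apart. Dividing by an endothelial total does not show which cells carried the Cd34 RNA. A list of 7 mesothelial markers was also read, and the part of these cells in the female Cd34 results was not tested. Vwf of CT females was 1.41% on CTD and 1.91% on HFC, overlapping, and it also overlapped with KO females on HFC, at 1.42%. In males on CTD, Thbd was 2.19% in CT and 1.61% in KO, now overlapping, while sinusoidal markers summed to 501 to 598 CPM in CT and 375 to 482 CPM in KO.

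Macrophage markers rose on HFC in males, as did Icam1 in both genotypes and Vcam1 in KO. All 12 were tested, and 11 rose in CT males and 12 in KO males on HFC, with medians of log2 1.09 and 1.91. Their sum was 297 to 425 CPM in CT and 243 to 299 CPM in KO males on CTD, and 579 to 948 and 724 to 989 CPM on HFC. In females 0 of 12 were called, and the sums were 237 to 755 and 250 to 665 CPM on CTD, against 513 to 836 and 421 to 1372 CPM on HFC. The female HFC animals low in Icam1 and Vcam1, 512 and 413, had the lowest sums of their groups, at 513 and 421 CPM. They were also lowest for the summed T and NK cell markers (6.56 and 6.16 CPM) and neutrophil markers (9.82 and 12.75 CPM). CTD females 318, 309 and 317 had macrophage sums of 755, 635 and 665 CPM. Their Icam1 levels of 18.03, 17.4 and 21.0 CPM were below those of animals 512 and 413 (22.2 and 24.7 CPM), and their Vcam1 levels of 31.8, 39.6 and 30.8 CPM were above (26.9 and 24.2 CPM). T and NK cell markers rose in 5 of 8 (CT) and 7 of 8 (KO) in males, and neutrophil markers in 2 of 5 and 3 of 5. In females 0 of 8 and 0 of 5 were called in either genotype. None of the 12 macrophage markers was at 0 in any group, and the part of these cells in the results for Icam1 and Vcam1 was not tested. Platelet markers, read beside Selp, summed to 3.88 to 6.24 CPM in CT males on CTD and 5.70 to 7.98 CPM on HFC, with overlapping ranges. In KO males they were 4.18 to 5.46 and 4.65 to 8.60 CPM. In CT females the sums lay apart, at 6.37 to 7.20 and 7.31 to 8.85 CPM. KO females had 5.22 to 6.62 and 5.88 to 10.7 CPM. On HFC 1 of 5 tested platelet markers was called higher in KO males, 1 of 4 in KO females and 0 in CT. Their part in the Selp results was not tested.

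**Figure D4:**
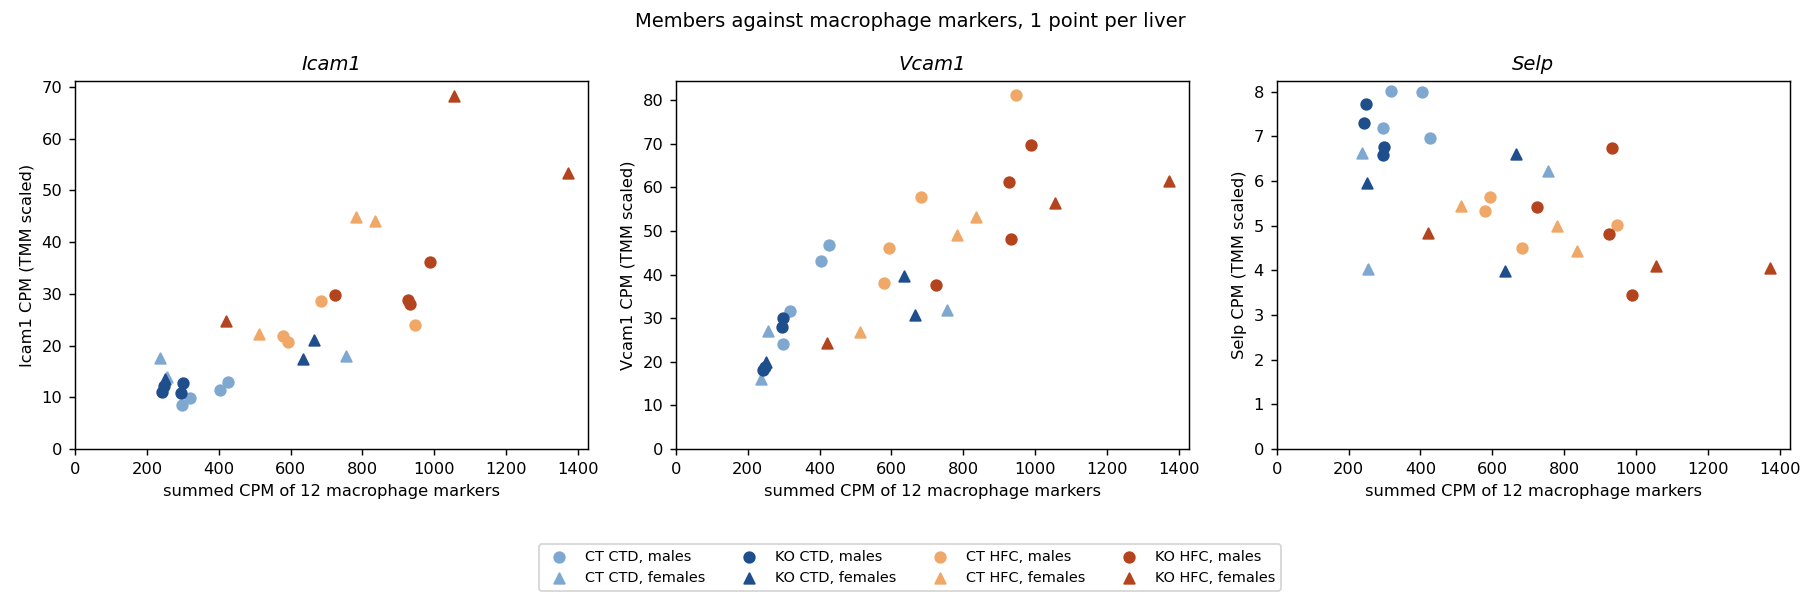
Levels of Icam1, Vcam1 and Selp in TMM-scaled CPM (vertical axes) against the summed CPM of 12 macrophage markers (horizontal axis), 1 point per liver, coloured by genotype and diet. The female HFC livers with sums of 421 and 513 CPM lie low for Icam1 and Vcam1, and 3 female CTD livers with sums of 635 to 755 CPM lie at 17.4 to 21.0 CPM for Icam1 and 30.8 to 39.6 CPM for Vcam1.

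After each table's mean was subtracted, the gene whose log2 CPM was most like Icam1 over the 28 livers, among 13738 genes, was Tnfaip2 (Pearson r = 0.96). It was Sla for Vcam1 (0.95), Sdr9c7 for Selp (0.85), Ezr for Cd34 (0.86), P2ry6 for Plvap (0.87), Cul9 for Ackr1 (0.80), Eng for Vwf (0.76) and AI607873 for Thbd (0.69). These values describe livers that share diet groups, so the diet difference itself contributes to them. Among the members, Vcam1 and Icam1 had r = 0.78, and Selp had r = -0.69 with Vcam1 and -0.68 with Icam1.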

How the data were processed

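Total RNA from 28 whole livers was sequenced on a BGI DNBSEQ platform, per the labels. The authors deposited whole-number read counts per gene for each sex, and CPM values, which equal count over library total within 4.44e-05 CPM. Per the submitters' processing notes FastQC, edgeR and GRCm38 (mm10) were used. For the aligner, counter, annotation and strand setting: not given in the sources used here. All 56 columns were used.

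From the counts, TMM factors, filterByExpr and quasi-likelihood F tests were computed in edgeR 4.0.16 (R 4.3.3), 1 fit per sex with 4 groups, over 14078 genes in males and 13999 in females. A fit of all 28 libraries (14685 genes) tested sex differences. p-values were adjusted over all tested genes. The SE is the log2 fold change over the square root of F, and 95% intervals follow from it, so both are approximate. Labels do not say that animals came from separate litters or cages, so p-values measure the spread between these animals.

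Alternatives were RLE factors, library totals alone, no filter, DESeq2 1.42.0, limma 3.58.1 on log2(deposited CPM + 1), a fit of only the compared groups, HFC animals 412 to 420 only, and each animal left out. Library totals alone and limma both leave out TMM scaling. Steps were tested on simulated counts. The 10 members and 18 lists were chosen with earlier results of these data known. From each list up to 3 called genes by adjusted p were named, or up to 2 by p, with some of these genes not reported here. Gene positions and exon lengths come from GENCODE M21, and promoters from RefSeq on GRCm38.p6.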

Additional observations from a re-analysis of the deposited data

Results flagged for a closer look

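Among 40 male groups of member values, 2 held a library far from the rest of its group, where chance alone gives about 1 in 20 groups. Sele in KO males on CTD was 0.0469 CPM in animal 298, from 1 count, and 0 in the other livers of the group. Edn1 in KO males on HFC was 0.328 CPM in animal 415, from 8 counts, where the others had 10 or 11. Both values rest on few counts.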

How the results depend on the processing

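No paired analysis was possible because each animal number occurs once. The number of members called on HFC against CTD was 3 in CT males and 1 to 3 with 1 animal left out, lowest without animal 418. In KO males it was 4, and 2 to 5 with 1 animal left out, lowest without animal 414 or 540. In CT females it was 0, with 4 under library totals, 2 under DESeq2, 3 under limma and 0 to 1 with 1 animal left out. In KO females it was 1, with 2 under library totals, 0 with no filter, 0 in a fit of only the compared groups and 0 to 2 with 1 animal left out. The female counts under library totals include Sele, which passed the female filter through HFC livers alone. The cause of these changes was not tested. All genotype, interaction and sex-difference counts of members stayed at 0 in every alternative run. No member or list gene reversed a called direction. Over all genes, diet calls in CT females ranged from 29 to 1827 around 307, in KO females from 435 to 3737 around 1202, in CT males from 1753 to 4614 around 2820 and in KO males from 3064 to 6092 around 4102. The 0 genotype calls became at most 11 in males on CTD, 3 in males on HFC, 1 in females on CTD and 9 in females on HFC. Library totals alone turned the male calls from 1497 higher and 1323 lower to 4125 and 410 in CT, and from 2184 and 1918 to 5581 and 511 in KO. In females they turned them from 131 and 176 to 1682 and 145 in CT, and from 551 and 651 to 3357 and 380 in KO. Counts of Sele, Ackr1 and Edn1 limit what can be seen at this depth.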
